A study of Mus musculus with 8 samples.

Results

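Transfer RNA for valine (tRNA-Val) is encoded in the mouse nucleus by gene copies with 3 anticodons, tRNA-Val-CAC, tRNA-Val-AAC and tRNA-Val-TAC, and its fragments were followed here in the small RNA of mature mouse sperm. Members were the distinct sequences whose annotation held only nuclear tRNA-Val names, which gave 1064 of 5724730 distinct sequences in the 8 libraries, and 1064 of the 23520 that were annotated to nuclear tRNAs alone. By anticodon, 229 sequences were assigned to CAC, 34 to AAC and 517 to TAC, and 284 matched more than 1 Val anticodon (called shared here). The anticodon, the end suffix and the length were given by the deposited annotation and not by any measured level. The suffix was 5′ end, 3′ end, CCA end or none, and fragments with none are called internal here. These include pieces that stop only a few bases before the 3′ end.

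The study asked whether activating the hunger-promoting AgRP neurons of the hypothalamus changes the small RNA of sperm. All mice received the virus AAV-hM3Dq-mCherry, which carries an activating designer receptor, in the arcuate nucleus on both sides at 8 weeks of age, with its expression checked 3 weeks later, and then the designer ligand clozapine-N-oxide (CNO) at 1 mg per kg, with food removed for 1 h before. The 4 activated samples came from Agrp Cre/+ mice, in which Cre under the Agrp gene lets AgRP neurons use the receptor, and the 4 control samples from Agrp +/+ mice, which lack Cre and received the same virus and ligand. Sperm was taken from the caudae epididymides 4 h after CNO. Whether each library came from 1 mouse was not given in the labels, so p-values measure the spread between these samples.

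A tRNA carries an amino acid to the ribosome and reads a codon through the 3 bases of its anticodon, which sit in a loop midway along the molecule. The CCA tail at its 3′ end holds the amino acid. Cleavage in the anticodon loop gives 5′ and 3′ pieces, and such fragments are abundant in mature sperm, where they have been studied as carriers of paternal dietary information. The first anticodon base of tRNAs encoded with A there is changed to inosine in animals, and sequencing reads inosine as G.

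The mature sequences below were assembled from overlapping fragments in the files, with the anticodon in capitals, and are shown because the fragments are placed on them. Positions are counted from 1 at the 5′ end, and the anticodon lies at positions 34 to 36.
tRNA-Val-CAC: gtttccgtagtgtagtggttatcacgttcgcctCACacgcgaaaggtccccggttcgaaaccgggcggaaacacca
tRNA-Val-TAC: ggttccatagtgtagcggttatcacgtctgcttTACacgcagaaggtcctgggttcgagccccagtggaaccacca
The sequences, each of 76 nt with the CCA tail, were identical at 59 positions, and 99.7% of the Val-CAC reads lay on the first and 100% of the Val-TAC reads on the second, rounded. Most fragments began at position 31, just before the anticodon loop. The fragments that carry the results follow, with the anticodon bases they hold in capitals.
Val-CAC 31-53: cctCACacgcgaaaggtccccgg
Val-TAC 31-71: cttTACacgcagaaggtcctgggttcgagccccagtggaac
Val-TAC 1-34: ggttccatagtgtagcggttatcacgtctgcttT
Val-TAC 55-76: tcgagccccagtggaaccacca
Val-shared 37-53: acgcgaaaggtccccgg
Val-shared 1-33: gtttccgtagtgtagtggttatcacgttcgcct
Val-AAC 31-53: cctAacacgcgaaaggtccccgg
A34G or C34G 31-53: cctGacacgcgaaaggtccccgg
In the last sequence pair the capital marks position 34, the first anticodon base. The last sequence is A34G relative to Val-AAC and C34G relative to Val-CAC, and is assigned to neither. RefSeq lists 22 nuclear tRNA-Val genes of these anticodons on GRCm38.p6, the build of the files (mm10): 11 for CAC, 8 for AAC and 3 for TAC. They include n-TVcac6 at chr1:171111443-171111515, n-TVaac8 at chr3:30601270-30601342 and n-TVtac1 at chr19:12011931-12012003, each annotated as a tRNA gene. Copies of like sequence share reads, so which copy a fragment came from could not be told.

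The libraries held 14903635, 17489698, 14757501 and 9409491 reads in activated samples 1 to 4 and 12421068, 23123740, 9297271 and 14348060 in control samples 1 to 4. Levels are given as RPM, the reads of a class for every 1000000 reads of its library, where 1 read was worth from 0.0432 to 0.108 RPM. Some libraries stood apart from others of their group. Mitochondrial rRNA took 0.182%, 1.89%, 1.69% and 0.145% of reads in activated samples 1 to 4 and 1.21%, 0.167%, 1.09% and 0.123% in control samples 1 to 4, so each group had 2 libraries above and 2 below 0.5% (called rich and poor). The muscle and vessel microRNA markers, 5 of 5 detected and led by miR-143, summed to 36491 RPM in control 4 and to at most 525 RPM in the other 7 libraries. The 5 epididymal epithelium markers, led by miR-200c, summed to 18910 RPM in control 4 and to at most 3380 RPM elsewhere. Sperm and testis markers, 13 of 13 detected and led by miR-465, summed to 28545 RPM at the lowest (control 3) and 62578 RPM at the highest (activated 1). Erythroid markers (4 of 4 detected, led by miR-451a) summed to 110 to 395 RPM in the activated samples and 344 to 1388 RPM in the controls, and leukocyte markers (3 of 3, led by miR-142a) to 397 to 856 RPM and 293 to 548 RPM. Of the erythroid markers, miR-486a and miR-486b did not overlap between the groups. Both were lower in the activated samples (exact permutation p = 0.0286 each, ratios 0.195 and 0.198). Their levels were nearly equal in every library (97.4 and 97.0 RPM in activated 1, 387 and 375 RPM in control 4), so they are not separate observations. Both enter the summed list, which was at a ratio of 0.228 (exact permutation p = 0.0571). Of all RNA species by annotation, 1.17% were lower without overlap. No marker of any list was at 0. Control 3 had the most nuclear tRNA reads (153522 RPM) and control 4 the fewest (80336 RPM). The part of these differences in the tRNA-Val levels was not tested.

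Summed over all members, tRNA-Val fragments were at 5411, 4510, 3996 and 5409 RPM in activated samples 1 to 4 and at 7247, 4921, 7174 and 4127 RPM in control samples 1 to 4. Controls 1 and 3 lay above every activated sample and control 4 below 3 of them, so the groups overlapped. The means were 4831 ± 700 RPM (SD, n = 4) and 5867 ± 1585 RPM (SD, n = 4), a log2 ratio of -0.28 (exact two-sided permutation test, p = 0.314, and 0.629 after Benjamini-Hochberg adjustment over 22 isotypes). Of the 22 isotypes, tRNA-Val ranked sixth by mean level. It made up 5.26% of nuclear tRNA reads in the activated samples and 4.89% in the controls (exact permutation p = 0.371), so relative to other tRNA fragments the direction was the opposite.

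The direction also differed between libraries rich and poor in mitochondrial rRNA. In the rich libraries, Val fragments averaged 4253 RPM in the activated and 7211 RPM in the control samples, and both activated libraries lay below both controls. In the poor libraries they averaged 5410 RPM and 4524 RPM, and both activated libraries lay above both controls. With 2 libraries against 2, no test was made within a set, and the difference between the sets was not tested.

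**Figure D1:**
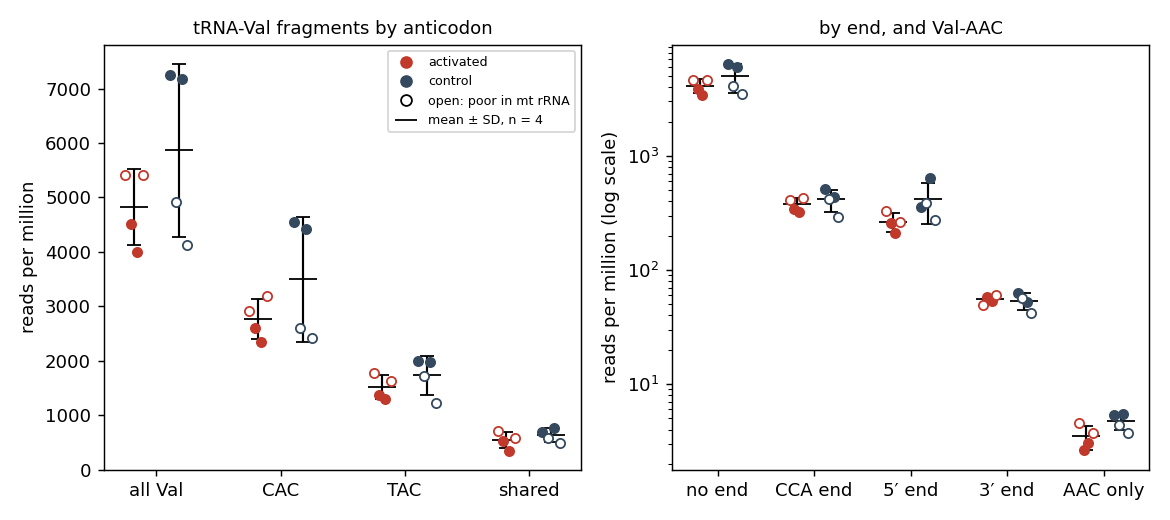
RPM of tRNA-Val fragments in each library, by anticodon (left, linear axis) and by end suffix and for Val-AAC (right, log axis). Points are libraries (open points are poor in mitochondrial rRNA), and bars are the mean and SD of 4 libraries; all Val fragments ranged from 3996 to 5411 RPM in the activated samples and from 4127 to 7247 RPM in the controls, where both filled points were highest.

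Val-CAC was the most abundant member in every library. It was at 2915, 2609, 2347 and 3188 RPM in activated samples 1 to 4 and at 4551, 2604, 4414 and 2412 RPM in control samples 1 to 4. Controls 1 and 3 were again highest, and controls 2 and 4 lay among the activated samples. The log2 ratio was -0.34 (exact permutation p = 0.343, adjusted p = 0.524 over 55 isotype and anticodon classes).

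Val-TAC followed in every library, at 1776, 1366, 1302 and 1630 RPM in activated samples 1 to 4 and at 1996, 1723, 1985 and 1222 RPM in control samples 1 to 4. Control 4 was the lowest of the 8 and controls 1 and 3 the highest, and the groups overlapped. The log2 ratio was -0.19 (exact permutation p = 0.343, adjusted p = 0.524 over the same classes). Fragments shared between Val anticodons were at 716, 532, 344 and 587 RPM in activated samples 1 to 4 and at 695, 589, 770 and 489 RPM in control samples 1 to 4, with overlapping groups and a log2 ratio of -0.22 (exact permutation p = 0.400, adjusted p = 0.537). With 1 library left out, the log2 ratio of shared fragments ranged from -0.38 to -0.06.

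Fragments assigned to Val-AAC alone were rare. They were at 4.56, 2.63, 3.05 and 3.72 RPM in activated samples 1 to 4 and at 5.31, 4.41, 5.49 and 3.76 RPM in control samples 1 to 4. In total they came to 467 reads over the 8 libraries, against 346084 for Val-CAC. The groups overlapped, with a log2 ratio of -0.44 (exact permutation p = 0.114, adjusted p = 0.507), and no Val-AAC sequence reached 50 counts in 4 samples, the minimum for the test of single fragments. The order of levels among the members, CAC above TAC above shared above AAC, held in all 8 libraries. With rows that also name other isotypes, shared fragments averaged 1945 and 1973 RPM in the activated and control samples, above Val-TAC at 1519 and 1732 RPM.

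The low level of Val-AAC led to a further count, made after the data were seen. Across positions 31 to 53, Val-AAC and Val-CAC differ only at the first anticodon base, and reads over that base were counted by the base they held, for fragments of 15 to 45 nt with at least 3 nt on each side. Reads with the encoded Val-AAC base came to 155 in all, from 0.915 to 1.77 RPM per library. Reads with the substitution A34G, relative to Val-AAC, came to 102084 in 69 distinct sequences. They were at 872, 848, 744 and 890 RPM in activated samples 1 to 4 and at 1215, 795, 1296 and 655 RPM in control samples 1 to 4. Controls 1 and 3 were highest, as for Val-CAC, control 4 was lowest, and the groups overlapped (log2 ratio -0.24, exact permutation p = 0.400).

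The A34G fragments kept a narrow ratio to Val-CAC. Per library they amounted to 27.8% to 34.1% of the Val-CAC reads across the same base, with a mean of 30.9%. None of them matched the genome, since no mismatch was allowed in the mapping, and 96.8% of their reads carried a piRNA label and the rest no annotation, so they are not among the members above. Like the Val-CAC fragments, 99% of their reads began at position 31, rounded, and 96.3% were 20 to 24 nt long. With at least 3 nt required before the base, position 31 was the latest start counted.

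Other changes of the same fragments were far rarer. For the most abundant Val-CAC fragment (positions 31 to 53, 149882 reads), 69 single-base variants are possible, and their median was 11 reads. The variant with G at position 34 had 52291 reads, the next (C34T) had 2165 and the one after it (A43G), which is itself annotated as Val-CAC, had 140. In the Val-TAC sequence, the 3 other bases at position 34 together had 30 reads against 91935 with the encoded base, and G had 0. A G in place of the Val-CAC base (C34G) gives the same letters as A34G in Val-AAC, so which tRNA the reads came from cannot be told apart here, and RNA modification was not tested.

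**Figure D2:**
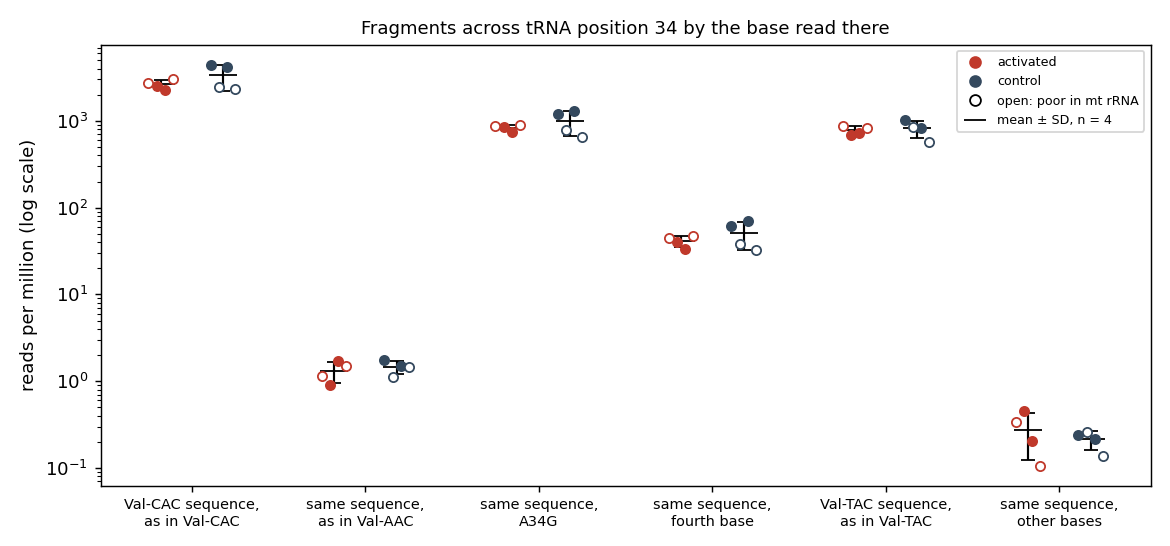
RPM (log axis) of fragments across tRNA position 34, by the base read there, in the sequence that Val-CAC and Val-AAC share and in the Val-TAC sequence. Points are libraries (open points are poor in mitochondrial rRNA), with the mean and SD of 4; reads with A34G lie between 655 and 1296 RPM, and reads with the encoded Val-AAC base between 0.915 and 1.77 RPM.

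By end, internal fragments with no end suffix made up 85.2% ± 1.40 (SD, n = 8) of Val reads, against 22.3% ± 1.53 (SD, n = 8) for all other nuclear tRNAs, and were the larger share in 8 of 8 libraries (exact sign-flip permutation p = 0.00781, the smallest 8 libraries can give). Val 5′ fragments made up 6.30% ± 1.48 (SD, n = 8) of Val reads against 49.2% ± 4.28 (SD, n = 8) for the other tRNAs, lower in 8 of 8 libraries (exact sign-flip permutation p = 0.00781). The low 5′ share was not particular to valine: by mean 5′ share, tRNA-Val ranked 12th from the bottom of the 22 isotypes, between iMet (4.04%) and His (7.93%), and the high average of the rest came from isotypes such as Gly (64.8%) and Lys (78.6%). CCA-end fragments made up 7.49% of Val reads, against 27.7% for the other tRNAs. These shares depend on membership, since 104219 CCA-end reads that name tRNA-Val with another isotype are not members, against 45226 that are. With the rows that name other isotypes, CCA-end fragments would be at 1323 of 6232 RPM in the activated samples and 1278 of 7204 RPM in the controls, and internal fragments at 4568 and 5435 RPM.

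**Figure D3:**
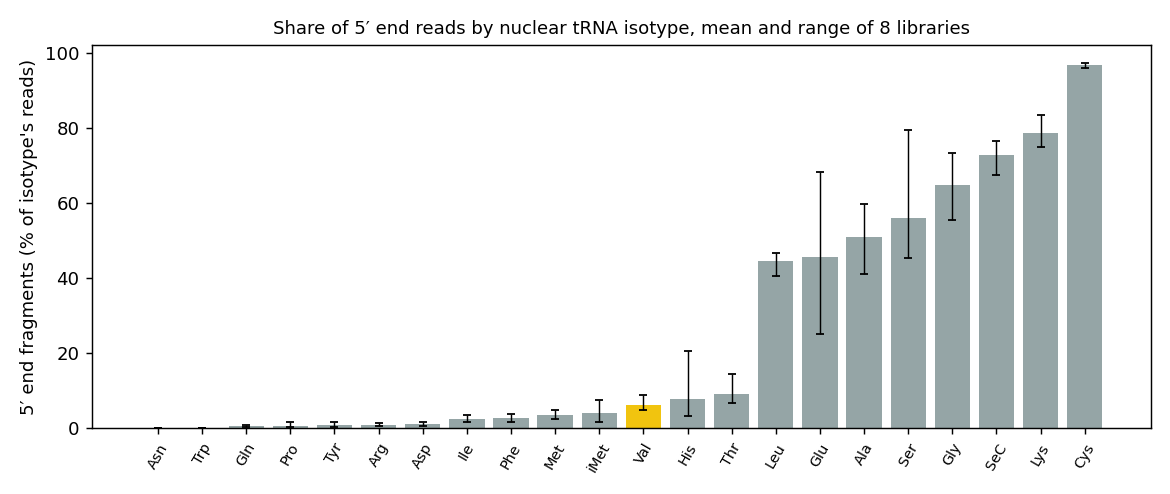
Share of 5′ end fragments in each nuclear tRNA isotype's reads, in percent. Bars are the mean and lines the range of 8 libraries; tRNA-Val (yellow) is at 6.30%, among the isotypes under 10%, and Cys is highest at 96.9%.

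Placed on the mature sequences, the members differed in where their fragments ended. In Val-CAC, 92.8% of reads began at position 31 (91.8% to 93.8% over the 8 libraries), and 97.7% of those were 20 to 24 nt long, ending mostly at positions 51 to 53. In Val-TAC, 48.8% of reads began at position 31 and 16.7% at position 1. Of the Val-TAC reads that began at position 31, 24.8% were 20 to 24 nt long and 73.6% were 33 nt or longer, ending at positions such as 64 and 71. Internal fragments were 22.6 ± 0.107 nt (SD, n = 8) long on average in Val-CAC and 33.3 ± 1.11 nt (SD, n = 8) in Val-TAC. They were shorter in Val-CAC in 8 of 8 libraries (exact sign-flip permutation p = 0.00781). The Val-TAC class also holds internal fragments that miss the first anticodon base, so this test does not compare like sets. Reads that began at position 31 cover that base in both members. Shared fragments began mostly at positions 35 to 37 (17.6% of reads at 35 and 25.6% at 36, with 37 the most used), past the base that tells CAC from AAC. A read over that base is not shared between CAC and AAC, so such starts follow in part from the assignment.

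**Figure D4:**
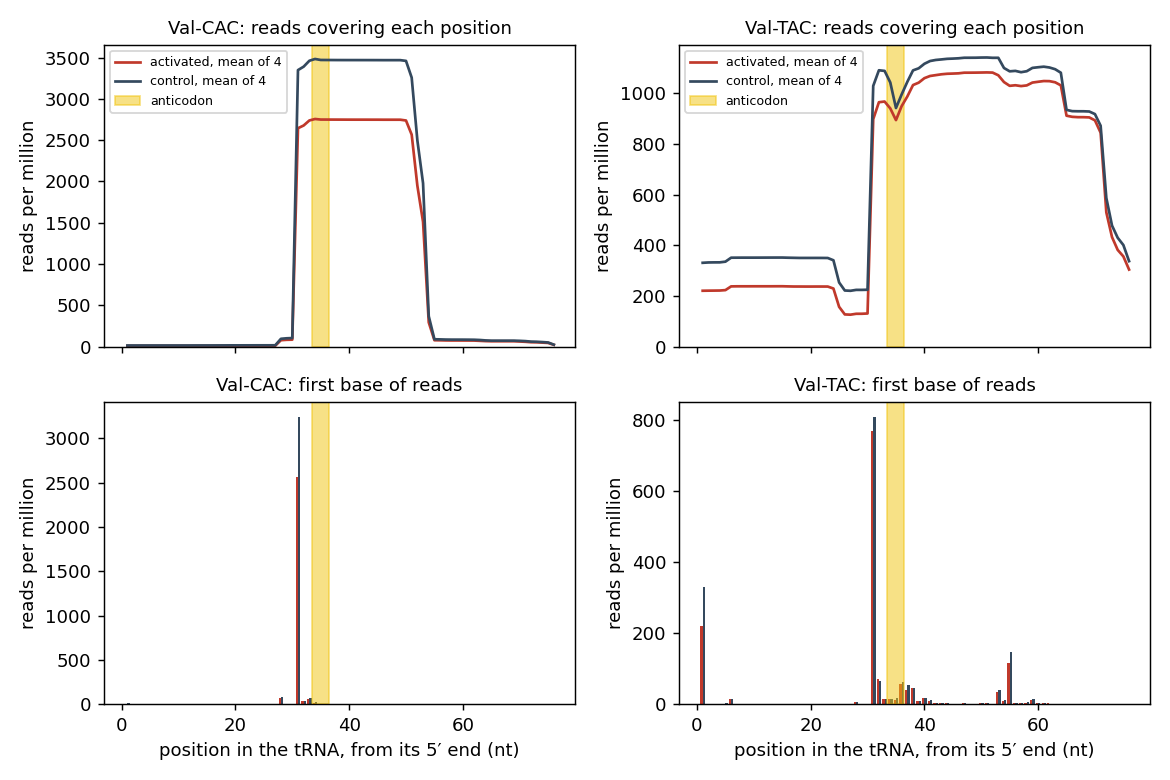
RPM along the Val-CAC and Val-TAC sequences, as reads covering each position (top) and as the first base of each read (bottom), against the position from the 5′ end in nt. Lines and bars are means of 4 libraries per group, and yellow marks the anticodon. Both members rise at position 31, and Val-CAC falls after position 51 while Val-TAC stays high past position 64. Reads of the Val-CAC sequence that miss the first anticodon base are mostly counted as shared and not drawn.

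Of the 1064 Val sequences, 100 reached the minimum of 50 counts in 4 or more libraries (52 TAC, 25 CAC and 23 shared). The quasi-likelihood fit of edgeR was made on all 12077 sequences past that minimum, and the other 964 Val sequences were not tested. None of the 100 was called at an adjusted p under 0.05 and an absolute log2 fold change over 1, where 0.431% of all tested sequences were called (52). At an unadjusted p under 0.05 the same test had 1 of the 100 Val sequences, lower in the activated samples, against 7.22% of all. That count ranged from 0 (without activated 4, or without control 3) to 6 (without control 1) with 1 library left out. The share of all sequences in those fits is not given, so these counts cannot be set against the 7.22%. DESeq2 called 0 of 100 Val sequences, against 1.99% of all, and had 5 at an unadjusted p under 0.05, against 8.11% of all. Of the 100, 77 had a negative log2 fold change, with a median of -0.18, beside a median of 0.08 over all tested sequences, of which 43.7% were negative.

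The 4 Val sequences whose groups did not overlap were lower in the activated samples, where 1.47% of all tested sequences were lower without overlap, 2.52% were higher and 3.98% either. They were Val-TAC 1-34, Val-TAC 37-75, Val-CAC 31-63 and Val-shared 1-32, of which Val-TAC 37-75 was named for the size of its fall and the last 2 after their values were seen.

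Summed into 10 Val species by anticodon and end, 0 were called by edgeR or DESeq2 (0% of 596 species by edgeR and 0.503% by DESeq2). At an unadjusted p under 0.05, edgeR had 1, the Val-TAC 5′ end (log2 fold change -0.57, SE 0.243, adjusted p = 0.568), against 8.22% of all species, and DESeq2 had 2, against 11.9%. With 1 library left out the edgeR count ranged from 0 to 2 (without control 4), and it was 0 with the replicate block. Shares over all species in those fits are not given. No Val species was without overlap, against 1.34% of all species higher, 1.17% lower and 2.52% either. Summed by species and length, 0 of 80 Val classes were called by edgeR or DESeq2 (0% and 0.438% of 3198). At an unadjusted p under 0.05, edgeR had 2 of the 80, against 7.04% of all classes, and DESeq2 had 3, against 10.3%. With 1 library left out the edgeR count ranged from 1 to 3 (without control 4), again with no share over all classes given. The groups did not overlap in 2 of the 80, both lower in the activated samples, against 0.938% of all classes higher, 1.84% lower and 2.78% either. By direction, 9 of the 10 Val species and 61 of the 80 length classes had a negative log2 fold change, where 52.9% and 51.6% of all features had one.

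Among the most abundant single fragments, Val-CAC 31-53 led. It was at 1174, 1053, 1011 and 1444 RPM in activated samples 1 to 4 and at 2019, 1142, 1868 and 1158 RPM in control samples 1 to 4, with controls 1 and 3 above the rest and overlapping groups (edgeR log2 fold change -0.38, SE 0.265, adjusted p = 0.944). Its shorter and longer forms from the same start, ending at positions 50, 51, 52 and 54, averaged 171, 629, 453 and 229 RPM, and their log2 fold changes lay between -0.34 and -0.22 with no call.

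Val-TAC 31-71, a 3′ piece that stops short of the CCA tail, was at 302, 233, 261 and 276 RPM in activated samples 1 to 4 and at 330, 260, 170 and 194 RPM in control samples 1 to 4. Control 1 was highest and controls 3 and 4 lowest, so control 3, among the highest for Val-CAC, was here the lowest (edgeR log2 fold change 0.18, SE 0.270, adjusted p = 0.986). The shorter Val-TAC 31-54 and 31-64 averaged 113 and 111 RPM, with log2 fold changes of -0.35 and -0.23. Val-shared 37-53 averaged 109 RPM (log2 fold change -0.16), and its ratio of mean RPM turned from 0.892 to 1.03 without activated 3. Val-TAC 55-76, a short piece that ends in the CCA tail, averaged 99.3 RPM (log2 fold change -0.36). Neither was called.

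Of the 4 ends, the 5′ fragments had the log2 ratio of RPM farthest from 0. Summed, they were at 329, 260, 210 and 264 RPM in activated samples 1 to 4 and at 353, 387, 644 and 275 RPM in control samples 1 to 4. Control 3 was far above the others, and control 4 lay below activated 1, so the groups overlapped (log2 ratio -0.64, exact permutation p = 0.0571, adjusted p = 0.609 over 77 isotype and end classes). Without control 3 the log2 ratio was -0.35 (exact permutation p = 0.143), and without control 4 it was -0.80 (exact permutation p = 0.0286, adjusted p = 0.138, the lowest over its alternatives). With nuclear tRNA reads as denominator it was -0.24 (exact permutation p = 0.200). The rich libraries gave a log2 ratio of -1.08 and the poor libraries -0.16, the same direction in both sets.

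The most abundant 5′ fragment was Val-TAC 1-34, which ends at the first anticodon base. It was at 73.0, 61.6, 42.4 and 54.4 RPM in activated samples 1 to 4 and at 88.2, 91.2, 207 and 81.3 RPM in control samples 1 to 4. All 4 controls lay above all 4 activated samples, closest between activated 1 and control 4, and control 3 was above the other controls (ratio of means 0.495, or 0.666 without control 3, edgeR SE of the log2 fold change 0.365, unadjusted p = 0.0223, adjusted p = 0.594). Read over all Val 5′ fragments of 34 nt, the levels were 89.2, 69.2, 50.8 and 59.1 RPM in the activated samples and 96.4, 105, 242 and 92.8 RPM in the controls. These groups did not overlap either (means 67.1 and 134 RPM, exact permutation p = 0.0286, the smallest that 4 against 4 can give, adjusted p = 0.794 over 874 classes of isotype, end and length). At far lower levels, Val 3′-end fragments of 39 nt also did not overlap (means 0.596 and 1.54 RPM). Nor did CCA-end fragments of 25 nt, which were higher in the activated samples (means 0.770 and 0.226 RPM). Neither of these low classes reached the count minimum, so they are not among the 874 classes. The share of classes without overlap is not given, so none of these can be set against a background.

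Other 5′ lengths overlapped between the groups in the classes given here. The 35 nt class averaged 2.07 RPM in the activated samples and 9.14 RPM in the controls, where control 3 was at 30.2 RPM and the other controls at 1.93 to 2.44 RPM (exact permutation p = 0.486). The 32 nt class ranged from 15.6 to 25.1 RPM in the activated samples and from 23.7 to 65.1 RPM in the controls, highest in control 3 (ratio of means 0.582, exact permutation p = 0.0571, adjusted p = 0.794). The 33 nt class averaged 55.6 RPM in the activated samples and 90.0 RPM in the controls (exact permutation p = 0.114), and the 24 nt class, cut near the D arm, 65.0 and 80.2 RPM (exact permutation p = 0.200). The mean length of Val 5′ reads ranged from 29.0 to 30.2 nt in the activated samples and from 29.7 to 31.4 nt in the controls, with overlapping groups and control 3 highest (difference -0.73 nt, exact permutation p = 0.171, and -0.41 nt without control 3). Over reads of 26 nt or longer the difference was -0.07 nt. In the libraries rich and poor in mitochondrial rRNA it was -0.45 and -1.01 nt.

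**Figure D5:**
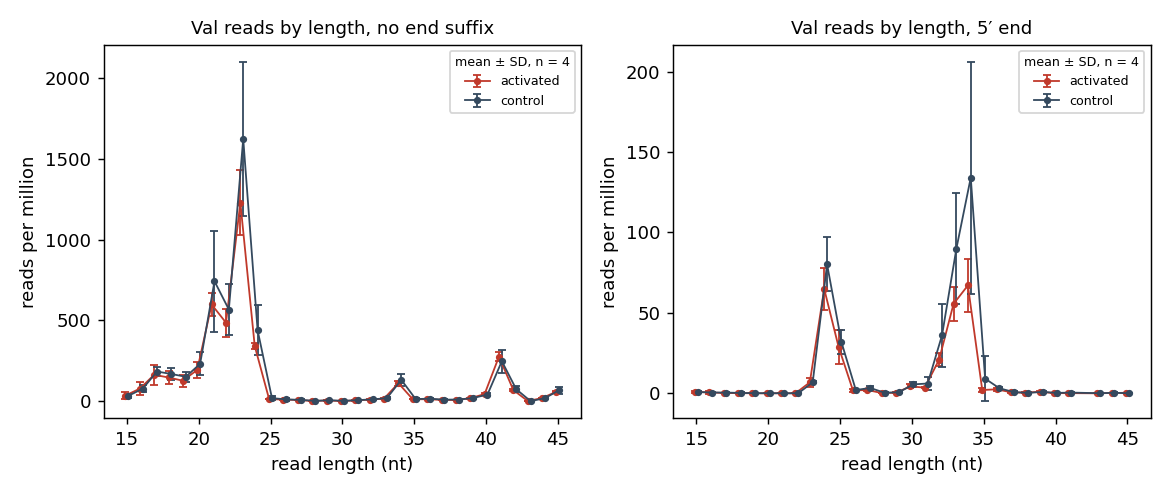
RPM of Val fragments by read length in nt, for internal fragments (left) and 5′ end fragments (right). Points are the mean and bars the SD of 4 libraries per group; internal fragments peak at 23 nt with a further peak at 41 nt, and 5′ fragments peak at 24 nt and at 34 nt, where the control mean (134 RPM) lies above the activated mean (67.1 RPM).

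For the other ends, log2 ratios of RPM were nearer to 0. With nuclear tRNA reads as denominator, the 3′ end was at 0.41, farther from 0 than the 5′ end, and the CCA end at 0.23 (exact permutation p = 0.0571 each, adjusted p = 0.677). In RPM, CCA-end fragments averaged 376 ± 51.6 RPM (SD, n = 4) in the activated and 415 ± 91.5 RPM (SD, n = 4) in the control samples (exact permutation p = 0.543), and 3′-end fragments 55.4 ± 4.79 and 53.6 ± 8.88 RPM (SD, n = 4 each, exact permutation p = 0.771). Internal fragments were at 4618, 3851, 3408 and 4658 RPM in activated samples 1 to 4 and at 6320, 4056, 6039 and 3518 RPM in control samples 1 to 4 (log2 ratio -0.27, exact permutation p = 0.314), with controls 1 and 3 highest as in the total.

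The tested fragments with the largest falls were Val-TAC 37-75 (log2 fold change -1.34), a Val-shared 5′ fragment of 33 nt that lies on neither sequence above (-1.18) and Val-shared 1-33. The first was at 3.56, 3.66, 0.542 and 3.40 RPM in activated samples 1 to 4 and at 3.78, 6.18, 5.81 and 10.9 RPM in control samples 1 to 4, low in activated 3 and high in control 4. The other 2 falls were highest in control 3 (24.8 and 41.7 RPM, against at most 9.08 and 14.7 RPM in the other controls), and without it their ratios of mean RPM went from 0.426 to 0.836 and from 0.491 to 0.755. The largest rises were Val-TAC 40-54 (0.41), Val-TAC 32-71 (0.39) and a Val-shared CCA-end fragment of 16 nt (0.36), none of them called (adjusted p = 0.986 each by edgeR). Val-TAC 40-54 was at 14.6 RPM in activated 1 and at most 4.89 RPM in the other activated samples, and without activated 1 its ratio of mean RPM turned from 1.29 to 0.736.

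Of the 156 species of all nuclear tRNAs past the count minimum, 13 had a positive edgeR log2 fold change and the rest a negative one, with a median of -0.27. By edgeR 0 of the 156 were called, and 13 had an unadjusted p under 0.05. Val had 9 of 10 negative and a median of -0.15. The species whose level followed summed Val most closely over the 8 libraries, among 586, were Gly-CCC CCA end (Pearson r = 0.977, Spearman rho = 0.976; r = 0.988 without the 2 libraries farthest from the median), Ser shared internal (0.975, 0.976; 0.952), Gly-TCC internal (0.974, 0.929; 0.923), Glu-TTC internal (0.974, 0.929; 0.946) and Phe-GAA internal (0.971, 0.976; 0.950). All 5 are nuclear tRNA fragments from the same libraries and denominators, and these values are a description without a test.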

How the data were processed

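The members and lists were chosen with earlier results of these data known, and the A34G count and 2 kinds of added alternatives after seeing the data. Small RNA libraries were made with the NEXTFLEX kit, and the authors trimmed, mapped (Bowtie, mm10, no mismatch) and annotated reads of 15 to 45 nt with the SPORTS pipeline; duplicates were kept. They deposited 1 table per library of read counts per distinct sequence, and a summary of estimated counts per annotation, in which reads are divided among the RNAs they match. The summary totals, after rounding, equalled the rounded sums of the tables in 8 of 8 libraries. Rows that also name another isotype, mostly tRNA-Gly-ACC (157722 reads in 152 sequences), are not members.

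Counts were tested with edgeR 4.0.16 (glmQLFTest, TMM) in R 4.3.3, and with DESeq2 1.42.0 and apeglm 1.24.0 as an alternative, on sequences, species (isotype, anticodon and end) and species by length past a minimum of 50 counts in 4 or more libraries. A call needed an adjusted p under 0.05 and an absolute log2 fold change over 1; both tools were tested on simulated data. RPM sums of Val classes were compared by exact permutation over 70 assignments, adjusted by Benjamini-Hochberg over all nuclear tRNA classes of the same kind. Shares and mean lengths were compared between groups by the same permutation without adjustment. Within libraries they were compared by exact sign-flip, adjusted only over those comparisons within libraries. Libraries of 1 group differed by far more than sampling noise. Named fragments were the most abundant per anticodon and end, the 10 most abundant, and the 3 largest rises and falls; species like Val were the 5 of highest Pearson r of log2(RPM + 1). Alternatives covered the tool, normalization, count minimum, fold minimum, denominator, membership, mitochondrial rRNA set, replicate block and each library left out, and those added were A34G fragments counted as Val and controls 3 and 4 left out together.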

Additional observations from a re-analysis of the deposited data

Results flagged for a closer look

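Of 76 groups of 4 libraries examined for a single library far from the other 3, 4 had one, where chance gives about 1 in 20 groups. Val-shared 5′ fragments were at 121 RPM in control 3, against 38.9 to 47.4 RPM in the other controls; control 3 also had the most 5′ reads of all nuclear tRNAs (77536 RPM). Val-shared CCA-end fragments were at 40.8 RPM in activated 3, against 52.5 to 53.5 RPM in the other activated samples. Internal fragments were 86.1% of Val reads in activated 4, against 85.3% to 85.4% in the other activated samples, a gap of under 1 percentage point. Val-AAC CCA-end fragments were at 0.323 RPM in control 3, which was 3 reads. The cause of these values was not tested.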

How the results depend on the processing

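0 Val fragments, species and length classes were called by DESeq2 (5, 2 and 3 at an unadjusted p under 0.05) and by edgeR under each alternative run for calls (1, 1 and 2 in the reported analysis). The edgeR count of fragments at an unadjusted p under 0.05 varied: 6 of 100 with the mitochondrial rRNA covariate, 0 of 100 with the replicate block, 6 of 232 at a minimum of 10 counts and 16 of 529 at a minimum of 1 count (lowest adjusted p = 0.0663), and with 1 library left out from 0 (without activated 4 or control 3) to 6 of 95 (without control 1). The share of all tested sequences at that p is not given for these fits, so the counts cannot be read against a background. Log2 ratios turned positive with nuclear tRNA reads as denominator for all Val (0.11), Val-CAC (0.06), Val-TAC (0.19), shared (0.13), CCA end (0.23) and internal fragments (0.12); the 3′ end went from 0.05 to 0.41 and the 5′ end from -0.64 to -0.24. The denominator was lower in activated samples on average, with overlapping groups (lowest in control 4). The CCA end also turned with rows of other isotypes (0.05) and with genome-matched fragments only (0.28), and the 3′ end with genome-matched reads as denominator (-0.01) and with rows of other isotypes (-0.02), which also took shared to -0.02. With reads of 26 nt or longer, the 5′ mean length difference went from -0.73 to -0.07 nt. In libraries rich and poor in mitochondrial rRNA, log2 ratios were -0.76 and 0.26 for all Val, -0.86 and 0.28 for Val-CAC, -0.93 and 0.02 for Val-AAC, -0.58 and 0.21 for Val-TAC, -0.74 and 0.27 for shared, -1.08 and -0.16 for the 5′ end, -0.52 and 0.24 for the CCA end, -0.05 and 0.16 for the 3′ end and -0.77 and 0.29 for internal fragments; the share of nuclear tRNA reads moved by -0.20 and 0.95 percentage points. The cause was not tested.

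With 1 library left out, the 5′ mean length difference ranged from -0.95 to -0.41 nt, and the log2 ratio of the 3′ end ranged from -0.05 to 0.13, of the 5′ end from -0.80 to -0.35 and of all Val from -0.42 to -0.16. The log2 ratio ranged from -0.48 to -0.19 for Val-CAC, -0.60 to -0.33 for Val-AAC and -0.32 to -0.11 for Val-TAC. It ranged from -0.38 to -0.06 for shared, -0.28 to -0.03 for CCA-end and -0.40 to -0.13 for internal fragments. The replicate numbers did not pair the samples (correlations of same-numbered deviations -0.63, -0.55, 0.59 and 0.51); with the replicate block the log2 ratio of all Val was -0.25, 0 Val fragments were called and no Val call changed. Depth limited Val-AAC most, with 467 reads in all.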

Other observations

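Rows that name tRNA-Val together with another isotype, which are not members, were mostly CCA-end fragments whose letters tRNA-Val-CAC, tRNA-Val-AAC and tRNA-Gly-ACC share. They were at 2116, 1284, 765 and 1438 RPM in activated samples 1 to 4 and at 1625, 1358, 1311 and 1055 RPM in control samples 1 to 4. Activated 1 was highest and activated 3 lowest, so the spread was wider within the activated samples than between the groups. With the A34G fragments added, an alternative chosen after seeing the data, Val-AAC averaged 842 RPM in the activated and 995 RPM in the control samples, between Val-shared and Val-TAC in level.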
